A study of Homo sapiens with 5 samples.

Results

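The genes examined were 9 enzymes that make, salvage or remove deoxynucleoside triphosphates (dNTPs), the building blocks of DNA: RRM1, RRM2, RRM2B, TYMS, DUT, TK1, DCK, TK2 and SAMHD1. They were taken by gene symbol from the 26485 genes of the deposited count table. All 9 passed the filter on low counts, as did 14187 genes in all. RNA-seq had been performed on 5 libraries of RPE1 cells, a human retinal pigment epithelial line, labelled wild type. Of these, 2 came from cells given DMSO, the solvent of the drug, 2 from cells given 0.2 μM doxorubicin and 1 from cells given 0.34 μM doxorubicin, each for 18 h. Doxorubicin is a DNA intercalator and topoisomerase 2 inhibitor that causes DNA double-strand breaks. The doses are those on the treatment label of each sample and in the study's results. The description of the treatment gives the same digits at a far higher concentration. The 0.34 μM library had no replicate at its dose. The study's methods call the libraries biological replicates, while the labels do not say which cultures they came from.

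Ribonucleotide reductase converts ribonucleotides to deoxyribonucleotides. It joins a large subunit, RRM1, to a small subunit, which is RRM2 in S phase and RRM2B, also called p53R2, after DNA damage and in cells that do not divide. TYMS makes thymidylate from the deoxyuridylate that DUT supplies by cleaving dUTP, whereas TK1 and DCK salvage deoxynucleosides in the cytosol, TK2 does so in mitochondria and SAMHD1 breaks dNTPs down. RRM2, TYMS, TK1 and other S-phase genes are known targets of E2F factors, and RRM2B is a known target of p53.

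The counts per library lay between 23773061 and 36725345, with normalization factors between 0.975 and 1.04. Of the retinal pigment epithelium markers, MITF and OTX2 were at 23.5 to 56.7 CPM (counts scaled to library size after TMM normalization). BEST1 was at 0.548 to 3.91 CPM and PMEL at 0.196 to 1.33 CPM, while RPE65, RLBP1, TYR, TYRP1 and LRAT stayed below 1 CPM in every library. KRT8, KRT18 and VIM were at 238 CPM or more. The summed level of the leukocyte and blood markers was 0.191 to 0.313 CPM in DMSO and 1.08 to 2.20 CPM in doxorubicin, nearly all of it PTPRC, with CD3E and HBB at 0 counts, and that of the endothelial markers was 0.191 to 2.43 CPM and 0.425 to 3.33 CPM. The part of these markers in the results was not tested. The DMSO libraries differed from each other in S-phase genes. All 16 genes of an S-phase list were higher in DMSO replicate 2 than in replicate 1, by 0.82 on average on the log2 scale. For this count the share of all genes is not given here. In bulk RNA, fewer S-phase cells and less RNA of the S-phase genes per cell cannot be told apart.

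The sequence upstream of the start site was read for 8 genes from the RefSeq promoters of GRCh38.p14, 13 windows of 250 bases in all. The window of RRM2B was not analysed here. Of the genes with windows, 5 are shown because they are S-phase genes and hold the letters searched for, which are in capitals. These were the E2F words TTTCCCGC, TTTCGCGC, TTTGCCGC and TTTGGCGC, the cell cycle homology region (CHR) words TTTGAA and TTCGAA, and the CCAAT box CCAAT, each on both strands.
RRM2, chr2:10122489-10122738, plus strand: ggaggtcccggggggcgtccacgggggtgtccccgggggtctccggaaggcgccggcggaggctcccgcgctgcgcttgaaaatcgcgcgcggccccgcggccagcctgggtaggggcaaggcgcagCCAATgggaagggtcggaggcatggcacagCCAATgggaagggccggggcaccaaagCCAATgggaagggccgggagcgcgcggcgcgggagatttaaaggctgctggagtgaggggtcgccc
TK1, chr17:78187053-78187302, minus strand: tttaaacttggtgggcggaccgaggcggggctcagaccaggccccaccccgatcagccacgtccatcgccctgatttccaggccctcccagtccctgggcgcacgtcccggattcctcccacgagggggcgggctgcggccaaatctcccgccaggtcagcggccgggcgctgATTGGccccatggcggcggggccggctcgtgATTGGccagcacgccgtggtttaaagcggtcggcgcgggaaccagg
RRM1, chr11:4094435-4094684, plus strand: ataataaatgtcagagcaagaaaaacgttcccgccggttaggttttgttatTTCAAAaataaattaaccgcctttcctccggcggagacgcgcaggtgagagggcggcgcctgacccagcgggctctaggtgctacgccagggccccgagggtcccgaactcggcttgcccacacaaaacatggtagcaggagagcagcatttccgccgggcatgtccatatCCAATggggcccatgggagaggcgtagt
TYMS, chr18:657403-657652, plus strand: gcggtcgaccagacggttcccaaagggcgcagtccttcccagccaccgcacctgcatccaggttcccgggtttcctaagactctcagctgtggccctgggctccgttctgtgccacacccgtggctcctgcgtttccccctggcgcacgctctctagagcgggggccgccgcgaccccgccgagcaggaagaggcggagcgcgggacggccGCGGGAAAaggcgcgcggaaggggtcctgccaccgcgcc
DUT, chr15:48331947-48332196, plus strand: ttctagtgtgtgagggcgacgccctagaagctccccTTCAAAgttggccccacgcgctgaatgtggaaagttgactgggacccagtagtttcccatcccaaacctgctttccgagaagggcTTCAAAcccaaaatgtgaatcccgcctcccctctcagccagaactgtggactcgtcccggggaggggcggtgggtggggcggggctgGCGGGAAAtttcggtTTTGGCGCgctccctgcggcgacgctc
The window shown for RRM2, at 1 of its 2 start sites, held 3 CCAAT boxes, at 123, 93 and 66 bases before the start site, and that at the other held 1, at 249 bases. The window shown for TK1 held 2, at 77 and 46 bases, and that at its other start site none. RRM1 held a CCAAT box and a CHR word, TYMS an E2F word, and this window of DUT 2 E2F and 2 CHR words. The windows at the other start sites of DUT held none of these words. Of the genes not shown, SAMHD1 held 2 CCAAT boxes, while the windows of DCK and TK2 held none of these words. A CCAAT box was present in 5 of the 13 windows, against 32% of all 35116 promoter windows read. The 13 windows are not separate promoters, since they come from 8 genes and those of RRM2, those of TK1 and some of DUT overlap. An E2F word was present in 2 of 13 windows, against 2.79%, and a CHR word in 2 of 13, against 14.3%. The p53 decamer (a binding motif of p53) was found in the window of RRM1 alone, and in 5.57% of all windows. No window of the 13 held both an E2F word and a CCAAT box, no match overlapped another, and these matches describe letters and not bound sites.

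The small subunits of ribonucleotide reductase moved in opposite directions after doxorubicin. RRM2 fell 8.78-fold and RRM2B rose 3.90-fold in the 3 doxorubicin libraries over the 2 DMSO libraries, and DCK fell 2.44-fold. These 3 genes passed the threshold, 1 higher and 2 lower, and the remaining 6, among them TYMS, TK1 and DUT, did not. It was set at an FDR of 0.01, the FDR being the p of the edgeR quasi-likelihood test adjusted over all genes tested by the Benjamini-Hochberg method. Over all genes tested, 4.02% passed, 1.29% higher and 2.73% lower. At an FDR of 0.05, 4 of the 9 passed, against 13.6% of all genes tested. The median log2 fold change was -0.61 over the 9 genes and 0.013 over all genes tested.

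**Figure D1:**
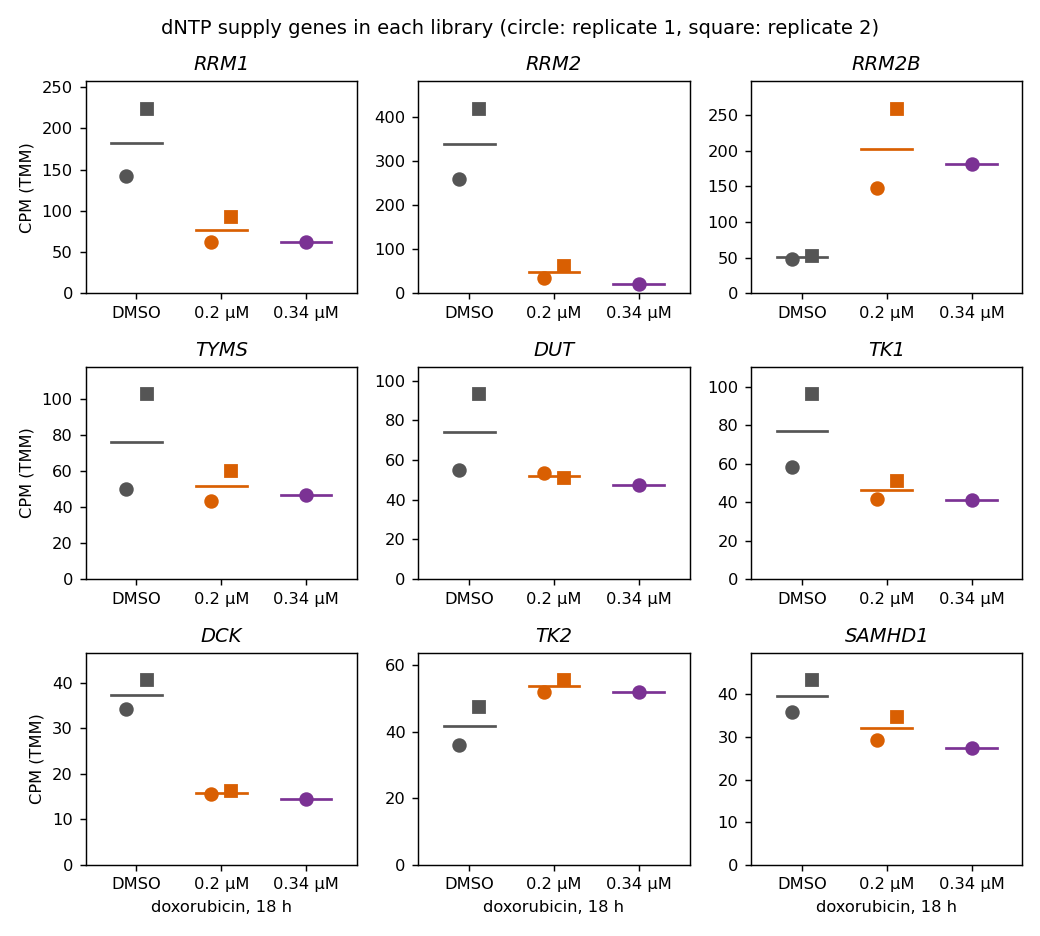
Levels of the 9 genes in CPM on the vertical axis, each starting at 0, by dose of doxorubicin on the horizontal axis. Each point is 1 library (circle, replicate 1; square, replicate 2) and each line the mean of a dose. The 3 doxorubicin libraries lie apart from both DMSO libraries for 8 genes and overlap them for TYMS.

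RRM2, the S-phase small subunit, was at 259 and 418 CPM in DMSO, at 34.2 and 61.1 CPM in 0.2 μM and at 20.6 CPM in 0.34 μM doxorubicin. The lowest DMSO library stood well above the highest doxorubicin library, and the 0.34 μM library was the lowest of all. The log2 fold change was -3.13 (standard error 0.45, edgeR FDR 0.00782), and 0.634% of all genes tested had a lower one. RRM2B, the damage-linked small subunit, was at 47.6 and 52.9 CPM in DMSO, at 147 and 259 CPM in 0.2 μM and at 181 CPM in 0.34 μM doxorubicin. Its DMSO libraries were close together and every doxorubicin library lay above them, with the 0.34 μM library between the 0.2 μM replicates. Its log2 fold change was 1.96 (SE 0.27, edgeR FDR 0.00654), and 2.35% of all genes tested had a higher one. The calls were sensitive to the loss of a library. With each left out in turn, RRM2 stayed between -3.63 and -2.75 but its FDR lay between 0.0104 and 0.0396, and RRM2B stayed between 1.71 and 2.13 and remained below 0.01 only without replicate 1 of 0.2 μM (edgeR FDR 0.00787, up to 0.0399 in the other fits).

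RRM1, the large subunit that carries the active site, was at 142 and 224 CPM in DMSO, at 62.6 and 91.8 CPM in 0.2 μM and at 61.9 CPM in 0.34 μM doxorubicin. The groups did not overlap, but the DMSO libraries differed 1.58-fold from each other. Its log2 fold change of -1.34 (SE 0.26) had an FDR of 0.0206 in edgeR, outside the threshold, and of 5.86e-05 in DESeq2. DESeq2 called 4 of the 9 genes, against 14.6% of all genes tested, namely RRM2B higher (6.59% of all) and RRM1, RRM2 and DCK lower (8.02%). With limma voom the 3 calls were those of edgeR, against 3.71% of all genes tested.

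Because both small subunits were counted in the same libraries, their ratio does not depend on library size. RRM2 reads were 5.45 and 7.90 times as many as RRM2B reads in DMSO. They were 0.232 and 0.236 times as many in 0.2 μM and 0.114 times as many in 0.34 μM doxorubicin. The order of both subunits was thus inverted in every doxorubicin library. The log2 ratio fell from 2.71 ± 0.379 (SD, n = 2) to -2.44 ± 0.602 (SD, n = 3), a difference of -5.16 (two-sided exact permutation test over libraries, p = 0.1, the smallest that 10 arrangements of 3 against 2 allow). With each library left out, the difference stayed between -5.42 and -4.81.

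The transcripts differ in length, 3258 bases for RRM2, 4774 for RRM2B and 3142 for RRM1 (spliced MANE Select transcripts of GENCODE), so their levels were compared per kilobase. RRM2B made up 11.1% and 7.95% of the small-subunit transcripts in DMSO on this scale, 74.6% and 74.3% in 0.2 μM and 85.7% in 0.34 μM doxorubicin. As a share of reads alone, without the correction for length, it was 15.5% (95% exact binomial interval 14.7% to 16.3%) and 11.2% (10.7% to 11.8%) in DMSO and between 80.9% and 89.8% in doxorubicin. These intervals cover counting error only, and the gap between the DMSO libraries was wider than they are. The sum of both small subunits was 89.5 and 139 CPM per kilobase in DMSO and 41.3, 73.0 and 44.2 CPM per kilobase in doxorubicin, 2.17-fold lower in the mean. Relative to RRM1 per kilobase, the sum was 1.98 and 1.96 in DMSO and 2.07, 2.50 and 2.25 in doxorubicin. The small-subunit pool was thus lower while its ratio to the large subunit was slightly higher, and both are descriptions without a test.

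**Figure D2:**
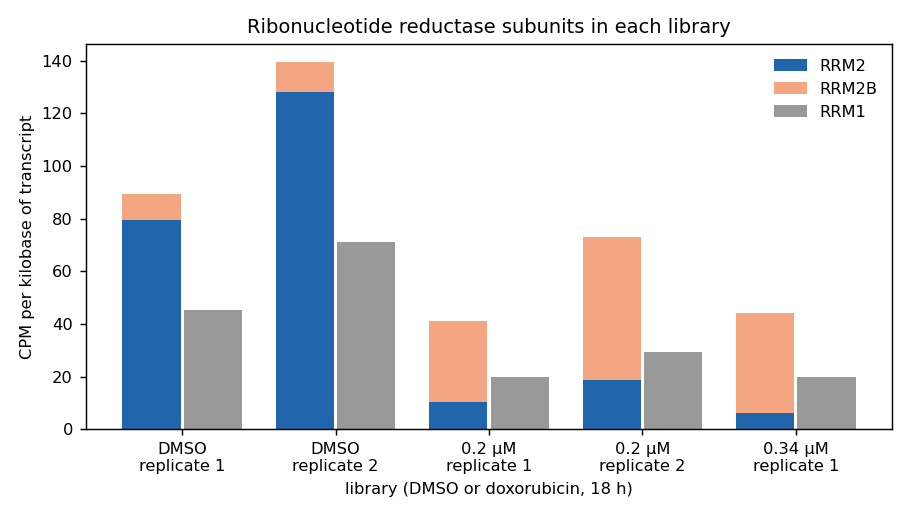
Ribonucleotide reductase subunits per library in CPM per kilobase of transcript, with RRM2 and RRM2B stacked beside RRM1. RRM2 is most of the small-subunit bar in both DMSO libraries and RRM2B is most of it in the 3 doxorubicin libraries, at 74.3% to 85.7%.

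TYMS, TK1 and DUT, genes of thymidylate supply, were lower in the mean, but none of them passed the threshold. TYMS, the thymidylate synthase, was at 49.9 and 103 CPM in DMSO, at 43.2 and 60.2 CPM in 0.2 μM and at 46.5 CPM in 0.34 μM doxorubicin. Here the groups overlapped, since replicate 2 of 0.2 μM lay above DMSO replicate 1. This gave a log2 fold change of -0.61 (SE 0.31, edgeR FDR 0.237), which without DMSO replicate 2 was 0.0027. TYMS lies on chromosome 18 of GRCh38 at 657653 to 673578, where ENOSF1 and TYMSOS overlap it, and the strand setting of the counting is unknown here. ENOSF1 had 147 to 237 counts per library, far below the 1117 to 2623 counts of TYMS, and a log2 fold change of -0.38 (edgeR FDR 0.278), and TYMSOS had a log2 fold change of 0.89 (edgeR FDR 0.202).

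TK1, which salvages thymidine in the cytosol, was at 58.3 and 96.0 CPM in DMSO and at 41.8, 51.2 and 41.2 CPM in doxorubicin, the last in 0.34 μM. All doxorubicin libraries lay below both DMSO libraries. For TK1 the log2 fold change was -0.79 (95% interval -1.35 to -0.22, edgeR FDR 0.0722), between -1.11 and -0.38 with each library left out. DUT, which cleaves dUTP, was at 55.0 and 93.1 CPM in DMSO and at 53.3, 50.7 and 47.3 CPM in doxorubicin. Its doxorubicin libraries were close to DMSO replicate 1 and below DMSO replicate 2. For DUT it was -0.55 (95% interval -1.10 to -0.0039, edgeR FDR 0.16) and was -0.12 without DMSO replicate 2. All 9 genes were higher in DMSO replicate 2 than in replicate 1, between 1.58 and 2.06 times for RRM1, RRM2, TYMS, DUT and TK1 and between 1.11 and 1.33 times for RRM2B, DCK, SAMHD1 and TK2, beside the difference between these libraries in the S-phase list. In 0.2 μM doxorubicin, 8 of the 9 were higher in replicate 2. For these counts between replicates the share of all genes is not given here. The part of the S-phase difference in these results was not tested.

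DCK lies on chromosome 4 of GRCh38 at 70993649 to 71030914. This kinase, which phosphorylates deoxycytidine and the nucleoside drugs cytarabine and gemcitabine, fell evenly. It was at 34.3 and 40.6 CPM in DMSO, at 15.5 and 16.1 CPM in 0.2 μM and at 14.4 CPM in 0.34 μM doxorubicin. The replicates were closer together than for any S-phase gene above, and each doxorubicin library had between 0.355 and 0.471 times the level of each DMSO library. For DCK the log2 fold change was -1.29 (SE 0.16, edgeR FDR 0.00508). It stayed between -1.41 and -1.16 with each library left out, but the FDR was then above 0.01 in every fit, from 0.0116 to 0.0371.

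TK2, the mitochondrial thymidine kinase (chromosome 16, 66508003 to 66550291), was at 35.9 and 47.6 CPM in DMSO and at 52.0, 55.5 and 52.1 CPM in doxorubicin. With RRM2B it was the other gene that was higher in the mean, in all 3 doxorubicin libraries. The log2 fold change was 0.35 (95% interval -0.060 to 0.76, edgeR FDR 0.223), not past the threshold. SAMHD1, the dNTP hydrolase that limits dNTP pools outside S phase (chromosome 20, 36889773 to 36951708), was at 35.9 and 43.3 CPM in DMSO and at 29.3, 34.8 and 27.4 CPM in doxorubicin. It was lower in every doxorubicin library, by little in replicate 2 of 0.2 μM. The log2 fold change was -0.38 (95% interval -0.80 to 0.047, edgeR FDR 0.206). The reads of TK1 and TK2 can be set against each other as those of the small subunits were. TK1 had 1.62 and 2.02 times as many reads as TK2 in DMSO, and 0.802, 0.922 and 0.792 times as many in doxorubicin.

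**Figure D3:**
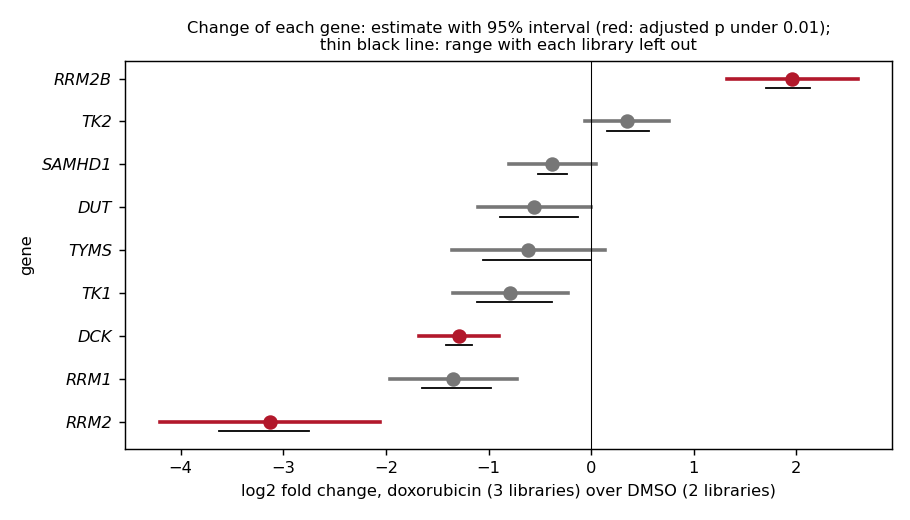
Log2 fold change of each gene on the horizontal axis, doxorubicin over DMSO, with the genes on the vertical axis. Points are edgeR estimates with 95% intervals, red where the adjusted p was under 0.01, and thin black lines span the estimates with each library left out. RRM2B (1.96) and RRM2 (-3.13) are at the ends, and the line of TYMS reaches 0.

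The groups did not overlap for 8 of the 9 genes, as for 47.7% of all genes tested. By pattern over the 5 libraries (root mean square difference of mean-centred log2 CPM), TYMS, TK1 and DUT were each nearest to another of these 3 among the 9 genes, at 0.158 to 0.166. SAMHD1 was nearest to DUT, at 0.197. RRM1 and DCK were nearest to each other, at 0.214, and TK2 was nearest to SAMHD1, at 0.374. RRM2 and RRM2B had no near partner among the 9, the nearest being RRM1 at 0.986 and TK2 at 0.802.

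Per kilobase of transcript, RRM2 was the most abundant of the 9 mRNAs in DMSO (104 ± 34.4 CPM per kilobase, SD, n = 2). It was followed by RRM1 (58.1 ± 18.4), TK1 (53.9 ± 18.7), TYMS (47.3 ± 23.2) and DUT (34.6 ± 12.6), then by DCK (14.9 ± 1.79), RRM2B (10.5 ± 0.786), TK2 (8.65 ± 1.71) and SAMHD1 (8.52 ± 1.12). The ranges of neighbours overlapped from RRM1 to DUT, and for TK2 and SAMHD1. In doxorubicin RRM2B came first, at 30.8 to 54.2 CPM per kilobase. After it came TK1 (31.3 ± 3.91, SD, n = 3), TYMS (31.0 ± 5.59), DUT (23.6 ± 1.42), RRM1 (22.9 ± 5.44), RRM2 (11.9 ± 6.33), TK2 (11.0 ± 0.412), SAMHD1 (6.56 ± 0.821) and DCK (6.13 ± 0.348). Here the ranges of TYMS and DUT, of RRM1 and RRM2, and of TK2 and SAMHD1 were apart, while those of the other neighbours overlapped. RRM2B thus moved from place 7 to place 1, RRM2 from place 1 to place 6 and DCK from place 6 to place 9.

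Between the doses, 0 of the 9 genes passed the threshold in edgeR, as 0% of all genes tested did. In DESeq2 and limma voom 0 of the 9 passed as well, and the share of all genes is not given here for these. All 9 had a lower level in the 0.34 μM library than the mean of the 0.2 μM pair, and 6 were lower than in both libraries of the pair. The share of all genes is not given here for these counts, and the 95% interval of the difference included 0 for every gene but RRM2. The difference of RRM2 was -1.21 on the log2 scale (95% interval -2.30 to -0.12, unadjusted p = 0.034 and FDR 1 in edgeR's model over all genes). RRM2 was the only gene of the 9 with an unadjusted p under 0.05 in edgeR, as for 0.155% of all genes tested, in a contrast without a replicate at 0.34 μM. For RRM2B the difference was -0.16 (95% interval -1.03 to 0.70), so that neither a lower nor a higher level at 0.34 μM could be shown. In the fit of 3 conditions, RRM2 changed by -2.83 at 0.2 μM and by -4.04 at 0.34 μM against the same DMSO libraries (edgeR FDR 0.011 and 0.0144). RRM2B changed by 2.01 and 1.85 (edgeR FDR 0.0179 and 0.0433) and DCK by -1.24 and -1.38 (edgeR FDR 0.0399 and 0.0728). None of the 9 passed the threshold in either of these contrasts, in which 1.21% and 0.627% of all genes tested did.

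Among 72 further genes of nucleotide supply in 6 lists, 69 were tested and 1 passed the threshold, or 1.45%, against 4.02% of all genes tested. At an FDR of 0.05, 13 of the 69 passed, against 13.6% of all genes tested, and DESeq2 called 14 of the 69, against 14.6%, so the share lay below that of all genes at the stricter edgeR threshold and above it in these. Their median log2 fold change was -0.15. AK1, an adenylate kinase, rose with a log2 fold change of 1.32 (SE 0.19, edgeR FDR 0.00768), from 29.0 and 25.4 CPM in DMSO to 56.3, 72.8 and 74.4 CPM in doxorubicin. It belongs to a list of kinases, deaminases and hydrolases, of which 24 were tested with a median of -0.12, and DESeq2 called 2 higher and 3 lower, against 6.59% and 8.02% of all genes tested. In this list DTYMK, the thymidylate kinase that follows TYMS and TK1, was at 28.4 and 65.5 CPM in DMSO and at 21.5, 21.6 and 17.7 CPM in doxorubicin. The DTYMK groups did not overlap, and its log2 fold change of -1.21 passed the threshold in DESeq2 (FDR 0.00607) and not in edgeR (FDR 0.0592). DCTPP1, a dCTP pyrophosphatase, had a log2 fold change of -0.96, likewise past the threshold in DESeq2 (FDR 0.00794) and not in edgeR (FDR 0.0509). DCTD, the dCMP deaminase, had one of 0.073, and DGUOK, the mitochondrial deoxyguanosine kinase, one of 0.10. CMPK2 had 0 counts in every library, which allows up to 3 counts or 0.0827 to 0.125 CPM, and was not tested, as were SLC28A1 and SLC28A2.

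In the thymidylate folate cycle, which supplies TYMS with its methyl donor, 0 of 7 genes passed the threshold in edgeR, while 6 had an unadjusted p under 0.05, as 30.8% of all genes tested did. The median log2 fold change was -0.86. DESeq2 called 4 of the 7, all lower, against the 8.02% above. Among them, and named after their values were seen, were SHMT1 (-1.53), MTHFD1 (-1.14) and SHMT2 (-0.86), with edgeR FDRs of 0.0114, 0.0157 and 0.0145.

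No gene of the other 4 lists passed the threshold in edgeR. Of 7 genes of pyrimidine ring synthesis, 0 had an unadjusted p under 0.05, and DESeq2 called 0. Of 15 genes of purine ring synthesis and salvage, 9 had an unadjusted p under 0.05, against 30.8% of all genes tested, and DESeq2 called 1 higher and 4 lower, against 6.59% and 8.02%. Of 8 nucleoside transporters tested, 3 had an unadjusted p under 0.05, and of 8 electron donors of ribonucleotide reductase, such as thioredoxin, 2 did, with 0 called by DESeq2 in either list. The median log2 fold changes of these lists, in the same order, were -0.28, -0.19, 0.14 and 0.11.

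**Figure D4:**
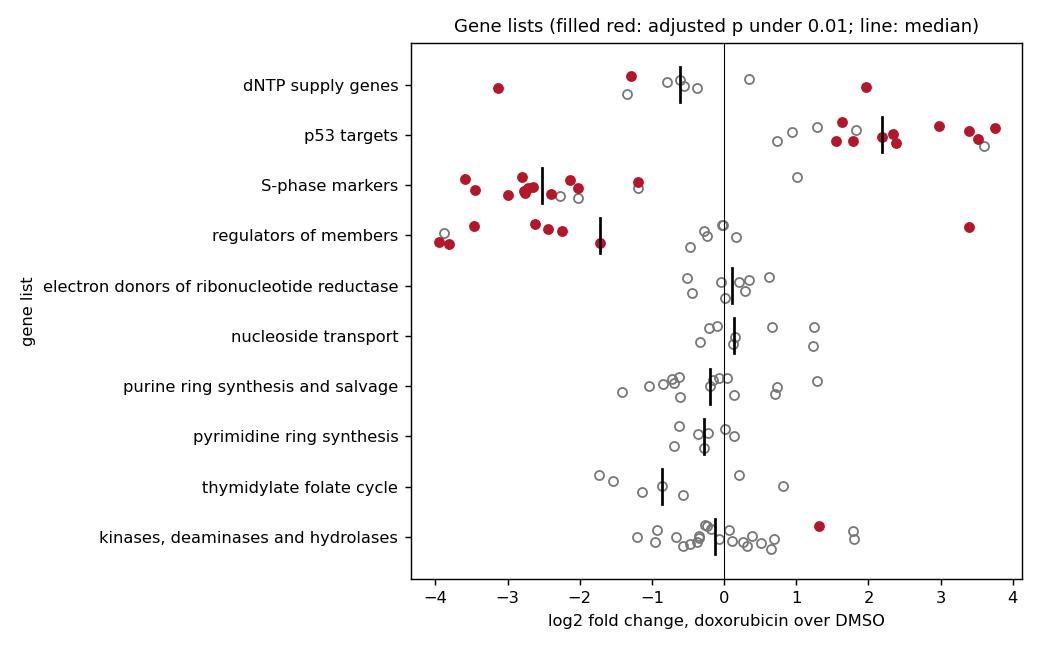
Log2 fold changes, doxorubicin over DMSO, of the genes tested in each list, with a line at the median. Filled red points passed an adjusted p of 0.01. The 9 dNTP supply genes spread from -3.13 to 1.96, the S-phase markers have a median of -2.52 and the p53 targets one of 2.19.

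Of 15 known regulators of these genes, 1 passed the threshold higher and 7 lower, against 1.29% and 2.73% of all genes tested. In the mean, 2 were higher and 13 lower, and the median of their log2 fold changes was -1.71. E2F1, an activator of S-phase genes, fell from 18.9 and 42.4 CPM in DMSO to 4.79, 6.28 and 3.94 CPM in doxorubicin (log2 fold change -2.62, edgeR FDR 0.00772). CCNF, whose protein marks RRM2 for degradation, fell as well, from 52.2 and 58.4 CPM to 6.11, 4.20 and 4.66 CPM (log2 fold change -3.47, edgeR FDR 0.000694). The mRNAs of the activator and of this degradation factor were thus both lower in every doxorubicin library. CCNA2 and E2F2 fell with log2 fold changes of -3.95 and -3.81, and CDKN1A, the CDK inhibitor p21, rose with one of 3.39.

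In the S-phase list, 12 of 16 genes passed the threshold lower and 0 higher, against 2.73% and 1.29% of all genes tested, and 15 had a lower mean, with a median log2 fold change of -2.52. Among those past the threshold, the largest falls were those of CCNE2 (-3.58), MCM6 (-3.45), POLE2, MCM3 (-2.80) and GINS2 (-2.77). RRM2, at -3.13, lay within the range of these largest falls, while RRM1, TK1, TYMS and DUT lay between -1.34 and -0.55. The smallest falls of the list were those of SLBP and CCNE1, both at -1.19, so that RRM1 lay within the range of the list. The difference between these genes and the list was not tested. PCNA was the S-phase gene with a higher mean, at 1.01 (edgeR FDR 0.117). In the p53 target list, 10 of 15 genes passed the threshold higher and 0 lower, against the same shares of all genes tested, and all 15 had a higher mean, with a median of 2.19. Among those past the threshold, the largest rises were those of FDXR (3.75), TP53I3 (3.51), CDKN1A (3.39), BBC3 (2.98) and SESN2 (2.38), and RRM2B, which is not in the list, was at 1.96.

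Among the 9655 genes whose mean log2 CPM was 3 or higher, the patterns most like that of RRM2 over the 5 libraries were those of CLSPN, PBK, PLK4, UHRF1 and HMMR, at root mean square differences of 0.200 to 0.269. CLSPN is a mediator of the replication checkpoint and PLK4 a kinase of centriole duplication. Those most like that of RRM2B were CD24, XPC, TNFRSF10B, MDM2 and LACC1, at 0.0950 to 0.161. Of these, XPC is a nucleotide excision repair factor, TNFRSF10B a death receptor and MDM2 the ubiquitin ligase of p53. The likeness is a description over 5 libraries that differ mostly by treatment.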

How the data were processed

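RNA-seq counts of 5 RPE1 libraries were analysed. The deposited values were raw counts, which the authors had made from poly-A RNA by STAR alignment of read pairs to hg38 and featureCounts (Rsubread) on iGenomes gene models. Not given in the sources used here were the versions, the strand setting and the treatment of multi-mapped reads. Reads from pseudogene copies and overlapping genes may therefore be shared, which concerns RRM2, TYMS, DUT and SAMHD1, overlapped by other RefSeq genes. A deposited table of the authors' own comparison (means, fold changes, p-values) was not used.

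The counts were tested in R 4.3.3 with edgeR 4.0.16 (quasi-likelihood test, TMM, default filter on low counts: 10 a library, 15 in all), with 3 doxorubicin against 2 DMSO libraries as in the study's methods, and with a contrast of the doses in a fit of 3 conditions. P-values were adjusted over all 14187 genes tested, at a threshold of 0.01. DESeq2 1.42.0 and limma 3.58.1 were alternatives. For differential expression the study's methods name DESeq2, also with an adjusted p of 0.01. Standard errors were derived from the log2 fold change and its F statistic, and log2 CPM had a prior count of 2. The DMSO pair and the 0.2 μM pair had a chi-square of 117 and 75.3 per degree of freedom, so each pair differed by more than counting noise. P-values measure the spread between these libraries, which the study's methods call biological replicates. The fits were tested on simulated data, and the outcome is not reported here.

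The 9 genes and all lists were chosen with earlier results of these data known. Besides the 9, the genes named are fixed examples (DTYMK, DCTD, DGUOK, CMPK2, DCTPP1, CCNF, E2F1, PCNA and ENOSF1), those of each list past the threshold (the 5 largest where over 5 passed) and the 5 nearest in pattern to RRM2 and to RRM2B. Any other gene is named as an overlapping or untested one, or because of its values. Some results are not reported here. Promoters are from RefSeq, GRCh38.p14.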

Additional observations from a re-analysis of the deposited data

How the results depend on the processing

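The choice of tool, normalization and filter changed few calls among the 9 genes, and leaving out libraries changed most of them. The 9 genes had 3 calls with limma voom and with RLE size factors and 4 with DESeq2, without a filter, at an adjusted p of 0.05 and with the replicate block. The fourth was RRM1 each time. Counts of calls among the 9 were 0 for 0.2 μM and 0 for 0.34 μM against DMSO in the fit of 3 conditions, and 0 to 1 with each library left out. Over all genes, 571 calls became 2073 with DESeq2, 1020 without a filter, 1927 at an adjusted p of 0.05, 171 for 0.2 μM, 89 for 0.34 μM and 30 to 207 with each library left out. The count of 30 was without DMSO replicate 2. Among the 72 wider genes, 1 call became 14 with DESeq2, 2 with limma voom, 8 without a filter, 13 at an adjusted p of 0.05, 0 for 0.2 μM, 0 for 0.34 μM and 0 to 2 with each library left out. The cause of these changes was not tested. With each library left out, TYMS had log2 fold changes of -1.05 to 0.0027, changing sign without DMSO replicate 2, and no other of the 9 did so under any of 13 alternatives. The log2 ratio of RRM2 to RRM2B differed by -5.85 with the 0.34 μM library alone against DMSO, an alternative chosen after seeing the data, and by -5.42 to -4.81 with each library left out.

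Whether libraries with the same replicate number share a day or batch is not stated, so they were not treated as pairs. The difference of replicate 1 from 2 in DMSO correlated with that in 0.2 μM across genes (r = 0.528, 14187 genes, which are not independent). With the replicate number as a block in a fit of the DMSO and 0.2 μM libraries, 1121 genes, 4 of the 9 and 7 of the 72 wider genes passed the threshold. The doxorubicin minus DMSO difference of the log2 ratio of RRM2 to RRM2B was -4.81 in these libraries, with or without the pairing. Equal pairs cannot change a difference of means.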
